A study of Sus scrofa with 15 samples.

Results

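The red cell genes described here are those for hemoglobin subunit beta (HBB), the alpha hemoglobin stabilizing protein (AHSP), erythroid 5-aminolevulinate synthase (ALAS2), the anion exchanger band 3 (SLC4A1), protein 4.2 (EPB42), carbonic anhydrase 1 (CA1), the erythroid Krüppel-like factor (KLF1) and hemogen (HEMGN). They were looked up by symbol in the gene table of the testis libraries, which has 30476 rows. Of the 8 genes, 7 had a row. HEMGN was not analysed here. HBB, AHSP, ALAS2, SLC4A1 and EPB42 had enough reads for a test among the 15634 genes tested, whereas CA1 and KLF1 are given as reads.

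Red cells are made in the bone marrow and, around birth, in the liver and spleen, and they reach other organs only through the blood. While an erythroblast matures, KLF1 and GATA1 turn on the genes for globin chains, heme synthesis and the membrane skeleton. The nucleus is then lost, and the young red cell that enters the blood, the reticulocyte, still carries part of this mRNA, most of it globin mRNA. Frozen testis tissue can hold blood, so reads on these genes are a readout of blood cells as well as of any testis cell that uses the same gene.

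The libraries came from 21-day-old male piglets of Dutch Landrace Duroc sows, which the study also calls White-Dutch Landrace, with 3 libraries in each of 5 diet groups. All piglets suckled at the farm until day 2 and were then fed from bowls. The Sow group received sow milk, the Milk group a cow's milk formula and the Soy group a soy formula, while the M+E2 and M+G groups received the cow's milk formula with estradiol as a positive control or with genistein at 84 mg/L of diet. The comparisons with Sow therefore set a whole formula diet against sow milk, and those of M+E2 and M+G with Milk differ by the added compound alone. The piglets were drawn from many litters, and RNA was taken from the frozen testis. The sources used here describe no step that cleared blood from the tissue. In Sow and Soy, 1 column of the table carries no number, and these libraries are called Sow unnumbered and Soy unnumbered.

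The depth lay between 6097552 and 9488579 counted reads, with a median of 8198038. Sow 2 stood apart from the other libraries. Its median correlation with the other libraries was 0.914, the lowest of the 15, against 0.941 to 0.969 for the others, and the study left it out of its tests. It is left out of the tests below as well, so that Sow has 2 libraries there, and values with it are given beside the results that it changes. Levels are in counts per 1000000 reads (CPM), scaled by edgeR's TMM factors over all 15 libraries, as mean ± SD with n = 3. A gene was called when edgeR's quasi-likelihood test gave a Benjamini-Hochberg adjusted p of at most 0.05 over all tested genes, with a change of at least 2-fold. Nothing says that several libraries came from the same animal, and the p-values measure the spread between these libraries. The tissue label was checked against markers. The 8 Sertoli cell markers were all tested and summed to between 3120 and 8130 CPM, and the 5 Leydig cell markers with a row summed to between 10600 and 24700 CPM.

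Only 1 difference of these genes passed the call over all 8 comparisons of groups, that of SLC4A1 between M+E2 and Sow. Its mean in M+E2 was at least 6.2-fold over Sow libraries set to 3 reads, and 2.6-fold without M+E2 3. The fitted log2 fold change had a 95% interval of 1.41 to 5.61. AHSP was 3.91- to 6.32-fold higher in the formula groups than in Sow by the fitted values, and these differences did not pass the threshold. HBB, which held nearly all reads of the set, had a mean of 516 CPM in Sow, 1050 CPM in Milk and 401 CPM in M+E2, and no difference of it was called. ALAS2 and EPB42 had overlapping groups in every comparison. Relative to Milk, no gene was called in Soy or in M+G (0% of the genes tested), where the fitted log2 fold changes of the 5 tested red cell genes lay between -0.54 and 1.13. In bulk tissue, fewer red cells and less of an mRNA per cell cannot be told apart.

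HBB (ENSSSCG00000014725, chromosome 9, 4800683 to 4801941 on Sscrofa11.1) encodes the beta chain of adult hemoglobin. Its level was 516, 557 and 476 CPM in Sow unnumbered, Sow 2 and Sow 3. In Milk 1, 2 and 3 it was 1320, 1460 and 355 CPM, and in Soy unnumbered, Soy 2 and Soy 3 it was 891, 476 and 884 CPM. M+E2 1, 2 and 3 had 230, 575 and 397 CPM, and M+G 1, 2 and 3 had 831, 1320 and 422 CPM. The Sow libraries lay close together, while each formula group held libraries on both sides of, or close to, the Sow level.

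From the highest to the lowest mean, HBB was at 1050 ± 603 CPM in Milk, 858 ± 450 in M+G, 750 ± 238 in Soy, 516 ± 40.6 in Sow and 401 ± 173 in M+E2 (SD, n = 3). All neighbours in this order overlapped. The largest fitted difference was that of M+E2 from Milk, a log2 fold change of -1.41 (SE 0.522, 95% interval -2.54 to -0.29) with an adjusted p of 0.224 in edgeR's quasi-likelihood test. No gene was called in this comparison (0% of the genes tested), and 17.7% of them had an unadjusted p of at most 0.05. Milk 3 lay below M+E2 2 and M+E2 3. Without Milk 3, the HBB difference was -1.83 and was called (adjusted p = 0.0232), in a fit that called 8.04% of all genes. The fitted log2 fold change of HBB over Sow was 1.04 for Milk, 0.76 for M+G, 0.59 for Soy and -0.38 for M+E2, with adjusted p between 0.429 and 0.671.

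**Figure D1:**
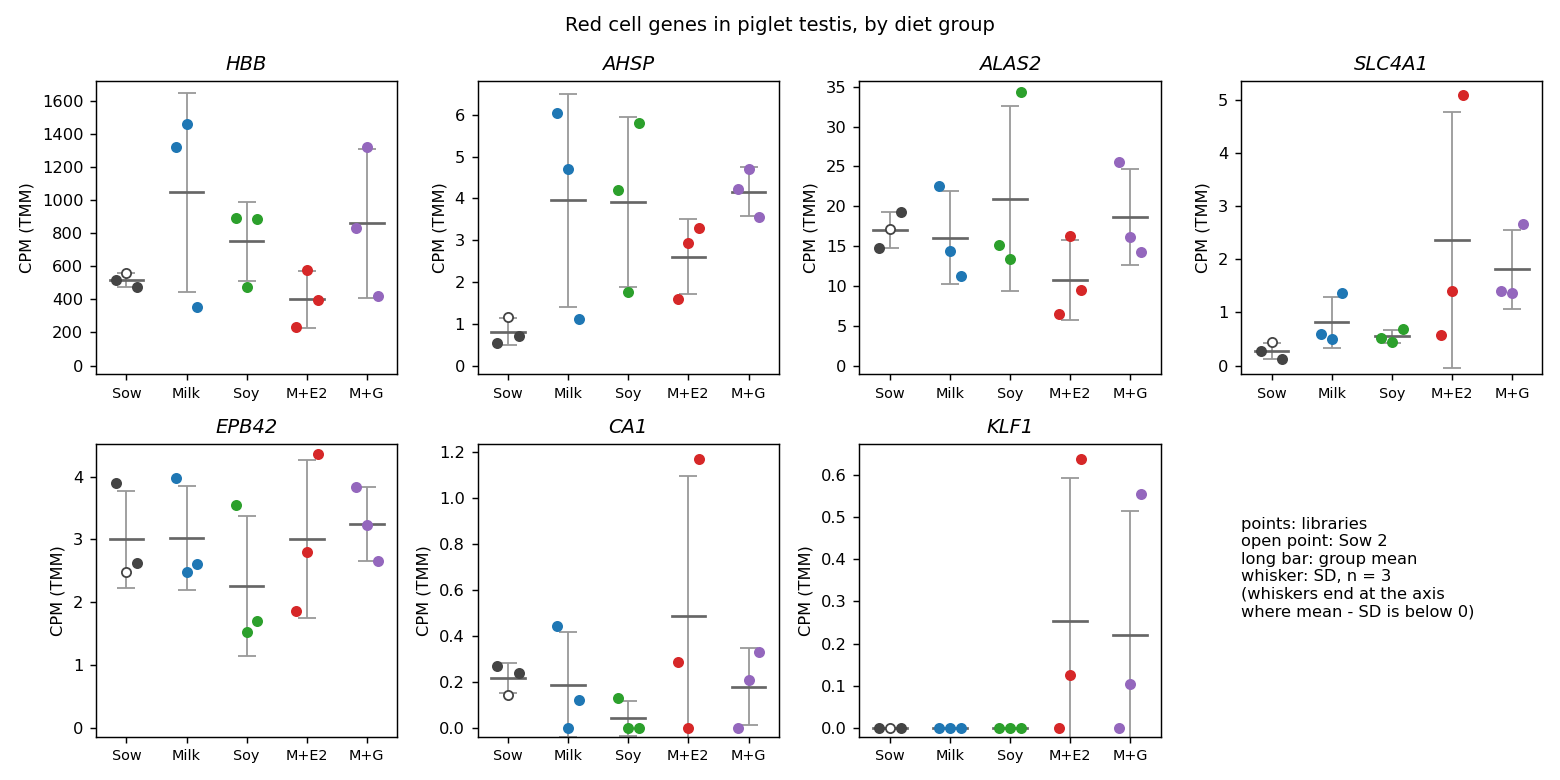
Level of each red cell gene (CPM, linear axis of its own for each gene) in the 15 testis libraries by diet group, with the group mean (bar) and SD (whisker, n = 3). AHSP and SLC4A1 were lowest in Sow, HBB was most spread in Milk (355 to 1460 CPM), and SLC4A1, CA1 and KLF1 had their highest value in the same library, M+E2 3.

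The HBB row may take reads of the related beta-like globin genes that lie beside it, because the sources do not say how reads that match several genes were counted. A second beta-like globin in the table, HBE1, the embryonic epsilon chain, had between 0 and 6 reads in a library and was under the filter. Among the alpha-like chains, HBZ, the embryonic zeta chain, was at 2.7 ± 0.603 CPM in Sow and between 5.1 and 6.46 CPM on average in the formula groups. HBQ1, the theta chain, was at 7.11 ± 2.75 CPM in Sow and between 4.59 and 7.08 CPM in the formula groups. Neither was called in any comparison. HBZ had an adjusted p of 0.176 for M+E2 relative to Sow (log2 fold change 1.02, SE 0.513).

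AHSP (ENSSSCG00000037878, chromosome 3, 17059340 to 17060343) encodes the chaperone that binds free alpha globin until it pairs with a beta chain. Sow unnumbered, Sow 2 and Sow 3 had 4, 8 and 6 reads (0.537, 1.17 and 0.717 CPM). Milk 1, 2 and 3 had 41, 38 and 9 reads (6.05, 4.7 and 1.12 CPM), and Soy unnumbered, Soy 2 and Soy 3 had 32, 16 and 51 reads (4.2, 1.75 and 5.8 CPM). Over M+E2 1, 2 and 3 there were 11, 23 and 31 reads (1.59, 2.93 and 3.29 CPM), and over M+G 1, 2 and 3 there were 33, 45 and 32 reads (4.23, 4.7 and 3.55 CPM). All 12 formula libraries lay above Sow unnumbered and Sow 3, and Milk 3 alone fell below Sow 2.

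The mean AHSP level was 4.16 ± 0.575 CPM in M+G, 3.96 ± 2.55 CPM in Milk and 3.92 ± 2.04 CPM in Soy, followed by 2.6 ± 0.9 CPM in M+E2 and, lowest, 0.807 ± 0.324 CPM in Sow (SD, n = 3). The formula groups overlapped with each other. Relative to Sow, the log2 fold change was 2.66 in M+G (SE 0.728, adjusted p = 0.124), 2.6 in Soy (SE 0.731, adjusted p = 0.32), 2.57 in Milk (SE 0.734, adjusted p = 0.36) and 1.97 in M+E2 (SE 0.744, adjusted p = 0.0897) by edgeR. None passed the threshold, although all 4 intervals lay above 0, the lowest from 0.37 to 3.57. With Sow 2 put back, AHSP was called in M+E2 (log2 fold change 1.7, adjusted p = 0.0436) and in M+G (2.36, adjusted p = 0.0249). It was not called in Milk (2.28, adjusted p = 0.0833) or in Soy (2.27, adjusted p = 0.0651). That fit called 18.1% of all genes for M+E2 and 10.3% for M+G. Without Sow 3, with Sow 2 in its place, the M+G difference was also called (2.28, adjusted p = 0.0427), and that fit called 13.0% of all genes.

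These comparisons share the Sow libraries, so the 4 values of a gene are not independent of each other. A gene that reads as low as AHSP or SLC4A1 did in Sow enters the tests only through libraries in which it is higher. Both genes had every formula library above both tested Sow libraries, which was also so for 6.84% of the genes tested. With Sow 2 included it was so for SLC4A1 and for 6.22% of the genes tested.

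AHSP differed from HBB in how it was spread over the libraries. Per 1000 HBB reads, AHSP had between 1.04 and 2.09 reads in the Sow libraries. It had 3.15 to 4.57 reads in Milk and 3.68 to 6.56 in Soy. In M+G it had 3.56 to 8.43 reads and in M+E2 5.1 to 8.3 reads. Every formula library, Milk 3 included, thus lay above every Sow library in this ratio, which was not tested. The share of all genes for which this held per HBB read was not counted, so the separation is not shown to be particular to AHSP. The Sow ratios rest on 4, 8 and 6 AHSP reads. Milk 3, with the lowest AHSP level of the formula libraries, also had a low HBB level.

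**Figure D2:**
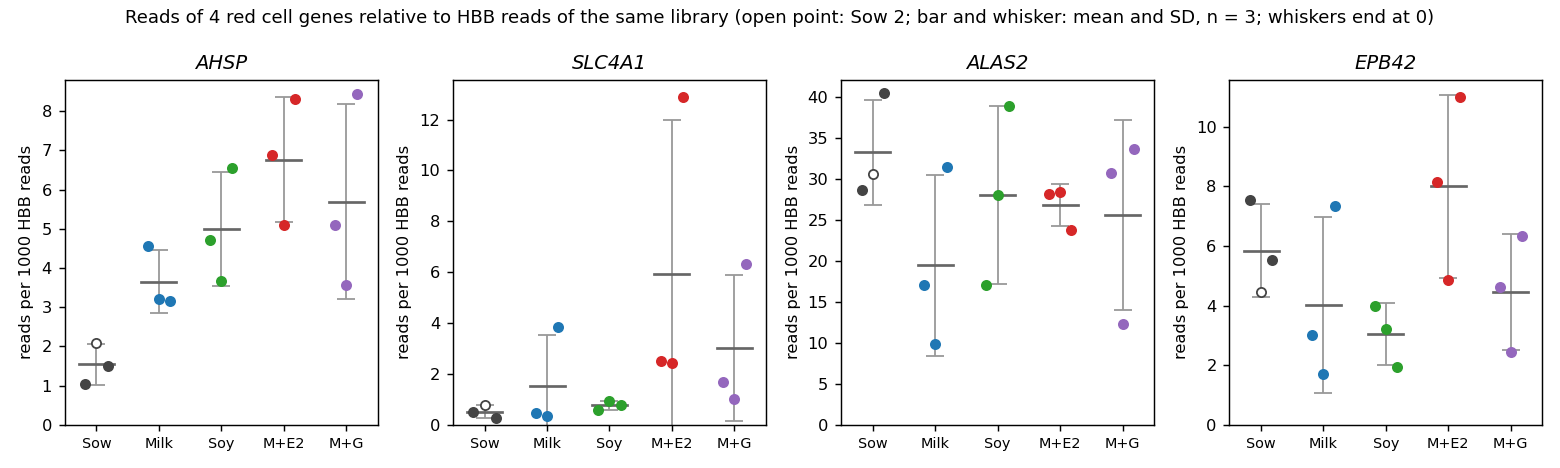
Reads of AHSP, SLC4A1, ALAS2 and EPB42 per 1000 HBB reads of the same library, by diet group, with the group mean (bar) and SD (whisker, n = 3). The AHSP ratio was 1.04 to 2.09 in Sow and at least 3.15 in the formula libraries, SLC4A1 reached 12.9 in M+E2 3, and the ALAS2 and EPB42 ratios overlapped between Sow and each formula group, except that ALAS2 in M+E2 and EPB42 in Soy lay below Sow. The ratios were not tested, and the share of all genes that separate in this way was not counted.

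ALAS2 (ENSSSCG00000012347, chromosome X, 47871519 to 47896041) encodes the erythroid enzyme for the first step of heme synthesis. It was at 14.8, 17.1 and 19.3 CPM in Sow unnumbered, Sow 2 and Sow 3, at 22.6, 14.4 and 11.2 CPM in Milk 1, 2 and 3, and at 15.2, 13.4 and 34.3 CPM in Soy unnumbered, Soy 2 and Soy 3. It was at 6.49, 16.3 and 9.45 CPM in M+E2 1, 2 and 3 and at 25.5, 16.2 and 14.2 CPM in M+G 1, 2 and 3. The groups overlapped throughout, with Soy 3 the highest library and M+E2 1 the lowest.

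The mean ALAS2 level ran from 21 ± 11.6 CPM in Soy over 18.6 ± 6.03 in M+G, 17 ± 2.24 in Sow and 16 ± 5.88 in Milk to 10.8 ± 5.04 in M+E2 (SD, n = 3), and neighbours in this order did not differ beyond their spread. The lowest unadjusted p was that of Soy against M+E2, where the log2 fold change was 1.02 (SE 0.417, 95% interval 0.12 to 1.92) and the adjusted p was 0.318 in edgeR. In that comparison 0.147% of all genes were called and 13.0% had an unadjusted p of at most 0.05. For M+E2 relative to Sow the value was -0.73 (95% interval -1.72 to 0.27, adjusted p = 0.279).

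SLC4A1 (ENSSSCG00000017358, chromosome 12, 18957813 to 18975266) encodes band 3, the chloride and bicarbonate exchanger that anchors the red cell skeleton. A shorter product of this gene is also known from the kidney. Sow unnumbered, Sow 2 and Sow 3 had 2, 3 and 1 reads (0.269, 0.437 and 0.12 CPM). Milk 1, 2 and 3 had 4, 4 and 11 reads (0.59, 0.495 and 1.37 CPM), and Soy unnumbered, Soy 2 and Soy 3 had 4, 4 and 6 reads (0.525, 0.438 and 0.682 CPM). M+E2 1, 2 and 3 held 4, 11 and 48 of them (0.577, 1.4 and 5.1 CPM), and M+G 1, 2 and 3 held 11, 13 and 24 (1.41, 1.36 and 2.66 CPM). M+E2 3 stood far above all other libraries, M+E2 1 was at the level of Milk 1, and Sow 2 and Soy 2 were level within counting error (3 and 4 reads).

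The mean SLC4A1 level was 2.36 ± 2.41 CPM in M+E2, 1.81 ± 0.74 in M+G, 0.817 ± 0.478 in Milk, 0.548 ± 0.124 in Soy and 0.275 ± 0.159 in Sow (SD, n = 3), and neighbours in this order overlapped, apart from Soy and Sow, whose nearest libraries were at 0.438 and 0.437 CPM. Because no Sow library had more than 3 reads, folds over Sow are bounds, with both tested Sow libraries set to 3 reads each. These bounds compare means and leave out the spread between the formula libraries. The mean of SLC4A1 in M+E2 was at least 6.2-fold over Sow. SLC4A1 was called there, with a fitted log2 fold change of 3.51 (SE 0.975, 95% interval 1.41 to 5.61, adjusted p = 0.0469 by edgeR). In this comparison 5.0% of all tested genes were called, and 1.44% of all tested genes were called in the higher direction. The call was lost when any one M+E2 library was left out (adjusted p = 0.113, 0.123 and 0.0939 without M+E2 1, 2 and 3), and without M+E2 3 the bound was 2.6-fold.

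In M+G, the mean of SLC4A1 was at least 4.75-fold over Sow, in a comparison with 0.0576% of genes called. The fitted log2 fold change was 3.12 (SE 0.995, 95% interval 0.97 to 5.26), with an adjusted p of 0.137 that did not pass. With all 3 Sow libraries, SLC4A1 was called in M+E2 (3.12, adjusted p = 0.0107) and in M+G (2.7, adjusted p = 0.0332). The bound on the mean was 2.15-fold in Milk (adjusted p = 0.461) and 1.44-fold in Soy (adjusted p = 0.484), where 0.0192% and 0.0128% of genes were called. The 95% intervals of the fitted log2 values included 0 in both, at -0.36 to 4.34 in Milk and -1 to 3.9 in Soy. Against Milk, SLC4A1 in M+E2 had a log2 fold change of 1.52 (SE 0.661, adjusted p = 0.263), which was 0.25 without M+E2 3. Soy against M+E2 gave -2.06 (SE 0.69, adjusted p = 0.235), which was -0.78 without M+E2 3. In M+G against Milk the value was 1.13 (SE 0.675, adjusted p = 0.94), and 1.2 (adjusted p = 0.94, unadjusted p = 0.0354) with the replicate number as a block. At all 3 numbers the M+G library had the higher SLC4A1 level, but the share of all genes for which this was so was not counted. The numbers were not shown to match libraries of the 2 groups. AHSP and SLC4A1 were also both called in M+E2 and in M+G when the 2 groups were fitted alone (12.3% and 5.38% of all genes called) and by edgeR's exact test (12.6% and 6.48%). DESeq2's Wald test called AHSP in M+E2, with 8.50% of all genes, and gave SLC4A1 no adjusted p. In the test for any difference between the 5 groups, which called 0.0640% of genes, SLC4A1 had an adjusted p of 0.21 and AHSP one of 0.238 in edgeR. Without Milk 3, AHSP was called there, as were 6.67% of all genes. The difference between the M+E2 and M+G groups was not tested.

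**Figure D3:**
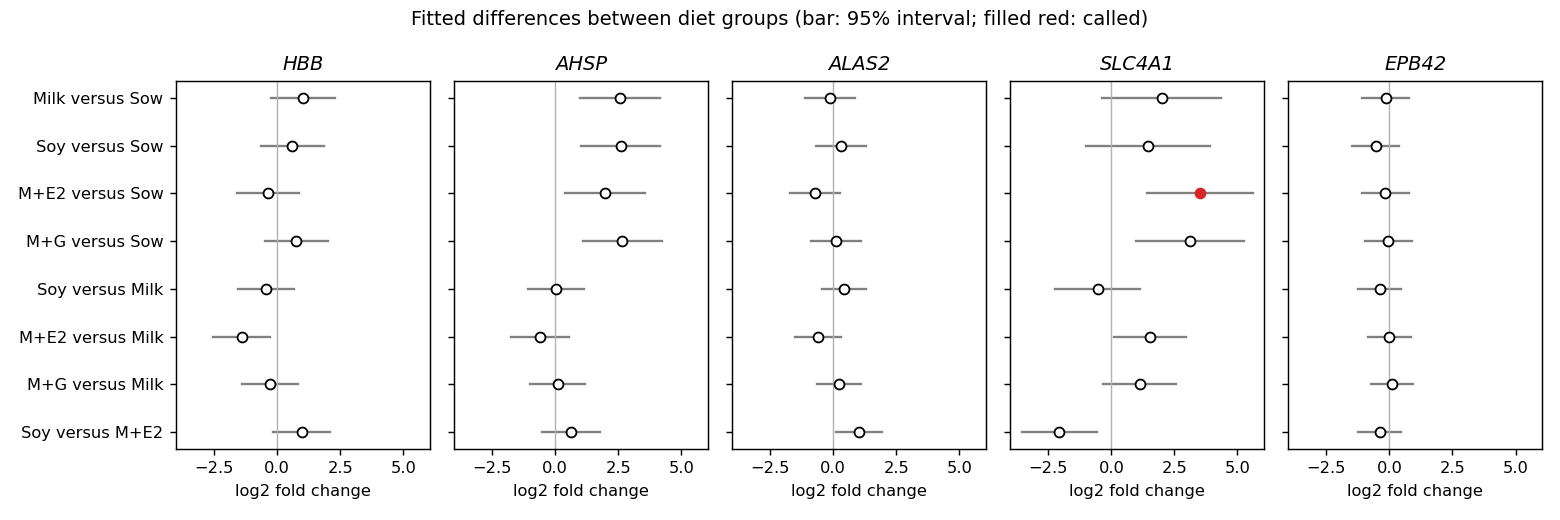
Fitted log2 fold changes (points) with 95% intervals (bars) for the 5 tested red cell genes in the 8 comparisons of diet groups, with Sow 2 left out. The called difference (filled red) was SLC4A1 in M+E2 versus Sow at 3.51, the AHSP intervals against Sow lay above 0, and the EPB42 values lay between -0.55 and 0.11.

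EPB42 (ENSSSCG00000004714, chromosome 1, 128231863 to 128253696) encodes protein 4.2, which ties band 3 to ankyrin in the red cell membrane. It had between 13 and 41 reads in a library, the fewest in M+E2 1 and the most in M+E2 3. Its mean was 3.25 ± 0.59 CPM in M+G, 3.02 ± 0.835 in Milk, 3.01 ± 1.25 in M+E2, 3 ± 0.777 in Sow and 2.26 ± 1.11 in Soy (SD, n = 3). All groups overlapped. The fitted log2 fold changes lay between -0.55 and 0.11 over the 8 comparisons, and the interval for M+E2 relative to Sow was -1.1 to 0.77, which does not reach the fitted value of its membrane partner SLC4A1. The difference between the genes was not tested.

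CA1 (ENSSSCG00000040770) encodes a carbonic anhydrase that is among the most abundant proteins of the red cell after hemoglobin. It had 2, 1 and 2 reads in Sow unnumbered, Sow 2 and Sow 3, 3, 0 and 1 in Milk 1, 2 and 3, and 1, 0 and 0 in Soy unnumbered, Soy 2 and Soy 3. M+E2 1, 2 and 3 held 2, 0 and 11 of its reads, and M+G 1, 2 and 3 held 0, 2 and 3. The Soy libraries were the lowest group and lay below every Sow library, as did 18.9% of the tested genes against the Sow libraries of the tests, but the reads of both groups were under the floor of 3 reads, so this was not detectable as a difference at this depth.

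KLF1 (ENSSSCG00000013730, chromosome 2, 66144767 to 66148500), the transcription factor that opens the adult globin genes in erythroblasts, had 0 reads in all Sow, Milk and Soy libraries, which allows up to 3 reads in each. M+E2 1, 2 and 3 held 0, 1 and 6 of its reads, and M+G 1, 2 and 3 held 0, 1 and 5. M+E2 3 and M+G 3, the only libraries above 3 reads, were also the 2 libraries with the most SLC4A1 reads. With no filter on low counts, KLF1 had an unadjusted p of 0.0743 and an adjusted p of 0.296 for M+E2 relative to Sow in edgeR, and 3.89% of all genes were called in that fit.

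M+E2 3 held the highest count of SLC4A1, EPB42, CA1 and KLF1 (48, 41, 11 and 6 reads), but not of HBB, AHSP or ALAS2. Beside this, its summed level of 8 neutrophil genes was 22.8 CPM, against 9.08 and 13.4 CPM in M+E2 1 and 2, 10.4 to 20.4 CPM in the Milk, Soy and M+G libraries and 22.8 to 86.6 CPM in Sow. LTF, the lactoferrin of neutrophil granules, had 52 reads in M+E2 3 and 1 to 32 reads in the other libraries. MMP9 and MMP8, both under the filter, also had their most reads in M+E2 3, with 17 and 7. The other libraries had at most 6 and 3 reads of them. Other genes of the list differed from these. MPO and CSF3R had 19 and 26 reads in M+E2 3 but 27 and 34 in M+E2 2. S100A8 and S100A12 had 56 and 28 reads in M+E2 3, their most in M+E2, but 296 and 194 in Sow 2. LTF, MMP9 and MMP8 were singled out after their values were seen, and the part of neutrophils in the SLC4A1 result was not tested.

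Over all 7 rows, the summed level averaged 1070 ± 609 CPM in Milk, 886 ± 450 in M+G, 778 ± 247 in Soy, 537 ± 39.8 in Sow and 420 ± 179 in M+E2 (SD, n = 3). HBB made up between 94.3% and 98.5% of these reads, and the set made up between 0.0274% and 0.146% of the reads of a library. Without HBB these sums were 24, 28.2, 27.7, 21.3 and 19.5 CPM, so the order of the groups changed once HBB was left out. The median log2 fold change of the 5 tested genes relative to Sow was 1.04 for Milk, 0.76 for M+G, 0.59 for Soy and -0.16 for M+E2, where the median of all tested genes lay between 0 and 0.02. As a description over the 15 libraries, which differ in depth and diet, HBB went with AHSP (Spearman's rho 0.729) and with ALAS2 (0.621). It did not go with SLC4A1 (-0.132), whose highest rho with another gene of the set was that with KLF1 (0.692). KLF1 had 0 reads in most libraries, so its rho rests on the few with 1 to 6 reads.

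The genes with a symbol whose CPM was most like the summed level over the 15 libraries, which is almost that of HBB alone, were HHEX (rho 0.889), MAP1LC3A (0.882), SAL1 (0.875), XBP1 (0.861), HOXB7 (0.854) and IL13RA1 (0.854), out of 12289 genes ranked. HHEX and HOXB7 are homeobox factors, MAP1LC3A is an autophagy protein, SAL1 a salivary lipocalin, XBP1 a factor of the unfolded protein response and IL13RA1 a receptor chain for interleukin 13. None is a gene of the red cell lists used here, and 121 of the ranked genes had a rho above 0.7. SAL1 ranged from 1.73 to 16.7 CPM and HOXB7 from 0.865 to 12.4 CPM.

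The wider red cell program was described with gene lists. Of 15 other tested genes for heme synthesis and mitochondrial iron supply, 14 had a fitted value below 0 for M+E2 relative to Sow, and the list median was -0.39 on the log2 scale against 0.01 over all genes. In this list 1 gene was called, where 5.0% of all tested genes were, and the regulators and enzymes below are to be read against the same share. The called gene was FECH, the ferrochelatase that puts iron into heme, which fell from 108 ± 13.2 CPM in Sow to 49.6 ± 2.39 CPM in M+E2 (log2 fold change -1.09, SE 0.202, adjusted p = 0.0343 by edgeR). FECH averaged 78.9 CPM in Milk, 80.4 CPM in Soy and 74.6 CPM in M+G, without a call. Its reads were 780, 841 and 809 in the Sow libraries and 358, 394 and 442 in the M+E2 libraries. ALAS1, the form of the first enzyme that all cells use, was at -0.46 (adjusted p = 0.331), GLRX5 at -0.52 (0.151) and ABCB6 at -0.12 (0.812). CPOX, which makes protoporphyrinogen, had an adjusted p of 0.0374 but a change of -0.77, short of 2-fold. These genes are known from heme synthesis in most cell types.

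Of 14 other membrane and skeleton genes with a row, 10 were tested and 0 were called in any comparison by edgeR. All 10 had a fitted value above 0 in M+G relative to Sow, with a median of 0.46, and 7 had one in M+E2, with a median of 0.24. SPTB, a spectrin chain of the red cell skeleton, had a log2 fold change of 1.32 (adjusted p = 0.0913) in M+E2. RHAG, a red cell ammonia channel subunit, had between 1 and 8 reads in a library and was not tested. The genes of highest level, EPB41 (-0.11), GYPC (0.18), XK (-0.25) and DMTN (0.29), had adjusted p between 0.56 and 0.717 in M+E2 relative to Sow.

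Of 14 erythroid regulators and receptors, 13 were tested, and in M+E2 relative to Sow 1 was called higher and 1 lower. The higher was GATA1, the partner of KLF1 in erythroblasts, which is also known from Sertoli cells. It had 2, 1 and 2 reads in Sow unnumbered, Sow 2 and Sow 3, 6, 6 and 5 in Milk 1, 2 and 3, and 6, 11 and 9 in Soy unnumbered, Soy 2 and Soy 3. M+E2 1, 2 and 3 held 8, 19 and 9 of its reads, and M+G 1, 2 and 3 held 16, 10 and 15. All formula libraries lay above the Sow libraries, as they did for 6.22% of the genes tested. By edgeR, GATA1 was called in M+E2, with a mean at least 3.97-fold over Sow libraries set to 3 reads (adjusted p = 0.0402). Like AHSP and SLC4A1, it entered the tests only through groups in which it is higher. The summed level of the 8 Sertoli markers was 4810 to 5370 CPM in Sow and 7270 to 8130 CPM in M+E2. It was 3120 to 5340 CPM in Milk, 3670 to 4840 CPM in Soy and 3680 to 7510 CPM in M+G. The part of Sertoli cells in the GATA1 difference was not tested. The lower was TFRC, the transferrin receptor, at 845 ± 321 CPM in Sow and 111 ± 14.4 CPM in M+E2 (log2 fold change -2.65, SE 0.389, adjusted p = 0.0209). TFRC was below Sow in the other formula groups too, at 221 ± 90 CPM in Milk, 244 ± 119 in Soy and 216 ± 45.4 in M+G, without a call. Relative to Milk, its log2 fold change in M+E2 was -1.03 (adjusted p = 0.207 by edgeR). In M+E2 relative to Sow, LDB1 was at 0.15 (adjusted p = 0.489), ZFPM1 at 0.88 (0.111), LMO2 at -0.01 (0.991), TAL1 at 0.71 (0.125) and EPOR, the erythropoietin receptor, at 0.08 (0.877). GFI1B, a further erythroid factor, had at most 5 reads in a library.

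Of 16 other red cell enzymes and late erythroid genes, 14 were tested and 1 was called. PRDX2, an abundant peroxidase of the red cell that other cells use as well, fell from 1130 ± 334 CPM in Sow to 465 ± 27.8 CPM in M+E2 (log2 fold change -1.08, SE 0.241, adjusted p = 0.0374 by edgeR). PRDX2 was below Sow in the other formula groups too, at 674 ± 132 CPM in Milk, 623 ± 164 in Soy and 537 ± 15.6 in M+G, without a call. In M+E2 relative to Sow, CAT, the catalase, was at -0.77 (adjusted p = 0.0752) and BLVRB, a biliverdin reductase, at -0.88 (adjusted p = 0.0842). GLUL, which makes glutamine, was at 0.16 (adjusted p = 0.615) and SELENBP1 at -0.23 (adjusted p = 0.665). CA2, the second red cell carbonic anhydrase, was at -0.33 (adjusted p = 0.476) and BPGM, which makes bisphosphoglycerate, at -0.51 (adjusted p = 0.174). The calls of FECH, GATA1, TFRC and PRDX2, and that of the Leydig cell gene STAR, were each lost when any one M+E2 library was left out.

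**Figure D4:**
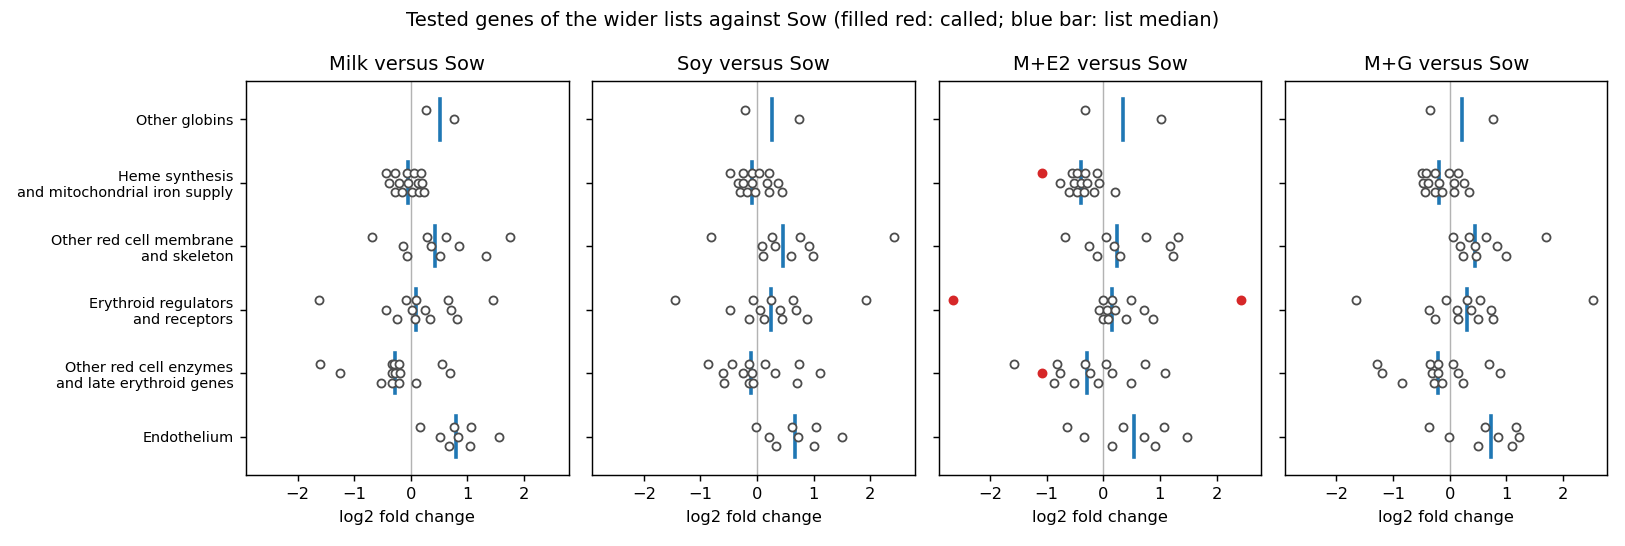
Fitted log2 fold changes of the tested genes of the wider red cell lists and of endothelial markers in each formula group relative to Sow, with Sow 2 left out, 1 point per gene, the list median as a blue bar and called genes in filled red. The called genes all lie in M+E2 versus Sow and are FECH (-1.09), TFRC (-2.65), GATA1 (2.44) and PRDX2 (-1.08).

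Markers of other cells of blood and vessels are given beside these values. None of the endothelial, platelet, neutrophil, T cell or B cell genes was called by edgeR in any comparison. The 8 endothelial markers summed to 363 to 508 CPM in Sow. Their sum was 626 to 1290 CPM in Milk, 740 to 926 CPM in M+G, 533 to 1340 CPM in Soy and 715 to 915 CPM in M+E2, so no formula library overlapped with Sow. Of single tested genes, 6.22% had every formula library above every Sow library, and the sum was not tested. The median log2 fold change of the 8 endothelial markers relative to Sow was 0.8 for Milk, 0.74 for M+G, 0.66 for Soy and 0.54 for M+E2. The value was above 0 for 8 of them in Milk, 7 in Soy, 6 in M+G and 6 in M+E2. EMCN and TEK were below 0 in M+E2 (-0.64 and -0.35) and in M+G (-0.36 and -0.02). The 10 platelet and megakaryocyte genes summed to 64 to 72.1 CPM in Sow, 71.4 to 102 CPM in Milk, 73 to 97.7 CPM in Soy, 106 to 119 CPM in M+E2 and 96.2 to 117 CPM in M+G. Most of that sum was ITGA2B, and the platelet markers PPBP and TREML1 had at most 6 and 1 reads in a library. T cell genes summed to 22.6 to 28.3 CPM in Sow and 14.1 to 29.4 CPM in M+E2, and B cell genes to 144 to 260 CPM and 99.6 to 162 CPM. Nearly all of the B cell sum was CD79A, with a mean of 191 CPM in Sow and 126 CPM in M+E2. The germ cell list summed to 148 to 170 CPM in Sow and 217 to 268 CPM in M+E2. Most of that sum was KIT, with a mean of 126 CPM in Sow and 218 CPM in M+E2. DND1 also had a higher mean in M+E2 than in Sow, while DDX4, UCHL1 and NANOS3 had a lower one. The peritubular myoid list summed to 284 to 637 CPM in Sow and 460 to 692 CPM in M+E2. The myoid sum was wider in the other groups, at 809 to 3240 CPM in Milk, 473 to 4010 in Soy and 599 to 2380 in M+G. Its highest values were those of Milk 2, Soy 3 and M+G 2, and the part of these cells in the HBB values was not tested. In these lists and the Leydig list, the call rule was met by 1 gene, STAR, the cholesterol carrier of steroid synthesis, which was lower in M+E2 than in Sow (-1.53, adjusted p = 0.0449). The part of endothelial cells, platelets or vessels in the AHSP and SLC4A1 values was not tested.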

How the data were processed

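The authors mapped trimmed reads to a porcine gene library and the Ensembl pig genome build 11.1 in the CLC Genomics Workbench, and deposited raw counts per gene and library. How reads matching several genes were counted, and whether the counts use strand or hold all mapped reads, is not given in the sources used here. The number of unused columns was 0. Testing used edgeR 4.0.16 under R 4.3.3 (TMM, filterByExpr with a minimum count of 10, quasi-likelihood F test, with 5 groups and 14 libraries in the model, Benjamini-Hochberg adjustment over 15634 genes). The same code was tested on simulated data. DESeq2 1.42.0, edgeR's exact test (the study's test), other filters, scalings and library sets were alternatives. Intervals and the floor of 3 reads cover counting or sampling error only. Positions are from RefSeq (Sscrofa11.1), matched by symbol for 6 of the 7 rows. Sequences were not used here.

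The members and gene lists were chosen with earlier results of these data known. Every member with a row is named, with the 6 genes most like their summed level by Spearman's rho, and from each list the called genes and up to 4 others of highest mean CPM. Further list genes (CPOX, SPTB, RHAG, TAL1, GFI1B, CA2, BPGM, LTF, MMP9, MMP8, NANOS3, EMCN, TEK, PPBP and TREML1) were named after their values were seen. Same-numbered Milk and M+G libraries had correlations of 0.233, 0.51 and 0.425 in their deviations from the group means. Same-numbered Milk and M+E2 libraries had -0.339 to -0.0643. The labels do not say that a number matches libraries of different groups. Libraries of different numbers were not compared, so these values do not show a pairing. The main fit had no block. Some genes of these lists are not reported here by name.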

Additional observations from a re-analysis of the deposited data

How the results depend on the processing

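For M+E2 relative to Sow, the count of called red cell genes was 1. It became 2 with all 3 Sow libraries, in a fit of the 2 groups alone and by edgeR's exact test, and 0 with at least 10 reads required in every library, a filter that SLC4A1 does not pass. With single libraries left out it lay between 0 and 1. For M+G relative to Sow the count was 0, and it became 2 with all 3 Sow libraries, with the 2 groups alone and by the exact test, and lay between 0 and 1 with single libraries left out. In each of these fits with 2 calls the genes were AHSP and SLC4A1. For M+E2 relative to Milk and for any difference between the 5 groups the count was 0, and between 0 and 1 with single libraries left out, the call being HBB and AHSP, respectively, without Milk 3. DESeq2's Wald test called AHSP in M+E2 relative to Sow (2, adjusted p = 0.0372) and gave SLC4A1 no adjusted p. It was not run for the 5 groups together. A left-out Sow library was replaced by Sow 2, and the 1 call in M+G relative to Sow comes from such a fit, without Sow 3. Against 781 genes in all, M+E2 relative to Sow had 6 called without any one M+E2 library, and 2891 and 3324 with Sow unnumbered or Sow 3 replaced by Sow 2. The causes were not tested.

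With the replicate number as a block, fitted for Milk, M+E2, M+G and the numbered Soy libraries, the count of called red cell genes stayed at 0 in all 4 comparisons, M+G with Milk included. No block was fitted for comparisons with Sow, whose numbered columns share too few numbers with the other groups.

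The summed level of Sow moved from 537 to 473 CPM without TMM factors, and without HBB the sums were 21.3 CPM in Sow, 24 in Milk, 28.2 in M+G, 27.7 in Soy and 19.5 in M+E2. In 28 further pairs of a member and a comparison, 37 of 385 alternative fits turned the sign, at log2 values between -0.43 and 0.32, and 0 were called. At 1 to 48 reads per library for SLC4A1 and 0 to 11 for CA1, depth limits what can be seen.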
